A study of Mus musculus with 10 samples.

Results

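A total of 36 genes for the noncollagenous proteins of the extracellular matrix were described, out of 26378 named genes in the table. They were chosen by gene symbol from a list of matrix glycoproteins, proteoglycans, elastic fibre proteins and laminin chains, and all 36 were found. The choice was made with earlier results of these data known. They were sorted by role into 8 matricellular and adhesive glycoproteins, 6 proteoglycans, 9 elastic fibre and microfibril proteins, 9 laminin chains and 4 other basement membrane proteins. The first 3 groups (23 genes) make up the interstitial matrix and the last 2 groups (13 genes) the basement membrane.

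Gene expression was measured by bulk polyA RNA sequencing of 10 tumors grown under the skin of young adult, wild-type, female BALB/c mice from WEHI-164, a mouse fibrosarcoma cell line. Each tumor was partially resected, the removed piece was sequenced untreated, and a hydrogel releasing poly(I:C), a synthetic double-stranded RNA, was then placed on the residual tumor in all mice. The groups were named from the later outcome. The 5 responders (RS, tumors 5, 9, 10, 11 and 12) showed complete regression, and the 5 non-responders (NR, tumors 1, 2, 3, 6 and 7) showed no delay in growth. The comparison thus asked whether matrix genes already differed in the pieces taken before treatment. A single piece per mouse was sequenced, from 1 cell line, and no mouse without poly(I:C) was included. Total estimated counts ranged from 16002949 to 31160790 per tumor (median 25627675 in responders and 22757833 in non-responders). Responder 9 was the shallowest and responder 11 the deepest library.

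The interstitial matrix is the fibrous and gel-like material between cells, in which proteoglycans and glycoproteins link collagen fibrils, elastic fibres and cells. The basement membrane is a thin sheet under endothelial and epithelial cells and around muscle and fat cells, built on laminin trimers (an alpha, a beta and a gamma chain), nidogens, perlecan, agrin and collagen IV. In solid tumors these proteins are made by cancer-associated fibroblasts, by pericytes and endothelial cells and, in sarcomas, by the mesenchymal tumor cells themselves.

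The transcripts of most of the matrix genes were abundant in every tumor. A total of 34 of the 36 genes passed the filter on low values, and the other 2 were close to background. Fmod, which encodes the collagen-binding proteoglycan fibromodulin, had 0 to 6 counts per tumor. Lama1, which encodes the laminin alpha chain typical of embryonic basement membranes, had 1 to 4 counts per tumor. Levels below are CPM, the counts per 1000000 counts of a library after scaling by edgeR's trimmed mean of M-values, and only the comparison of levels between genes uses CPM per kb of the longest coding transcript.

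Per kb, Sparc, a collagen-binding glycoprotein of bone and tumor stroma, was the most abundant of the 36 genes, at a mean of 509 CPM per kb over the 10 tumors. It was followed by Fn1 (149 CPM per kb), which encodes fibronectin, the adhesive protein bound by integrins, and by Ecm1 (127 CPM per kb), a glycoprotein that binds perlecan and other matrix proteins. The proteoglycan biglycan (Bgn) stood at 72.4 CPM per kb. Basement membrane genes reached similar levels, with 62.3 CPM per kb for Lamb1, 54.4 for Lamc1, 54.1 for Nid1 and 51.1 for Hspg2. Among the detected laminin alpha chains, Lama5 had 23.6 CPM per kb, Lama4 5.81, Lama3 1.17 and Lama2, the alpha chain of muscle and nerve laminin, 0.291. Elastin (Eln), the core of elastic fibres, had 1.65 CPM per kb, while fibrillin-1 (Fbn1), which builds the microfibrils around it, had 44.6.

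The spread between tumors differed among the genes. The coefficient of variation over the 10 tumors ranged from 5.20% for Sparc to 39.9% for Eln, with a median of 12.02% over the 34 genes against 9.17% over all 14944 genes tested. The laminin chains were among the steadier genes (median 9.40%), and the proteoglycans varied more (median 20.8%). Eln, Mfap5, Lum and Dcn, all genes of fibroblast-made interstitial matrix, were the 4 most variable, at 39.9%, 37.6%, 30.2% and 29.6%.

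**Figure D1:**
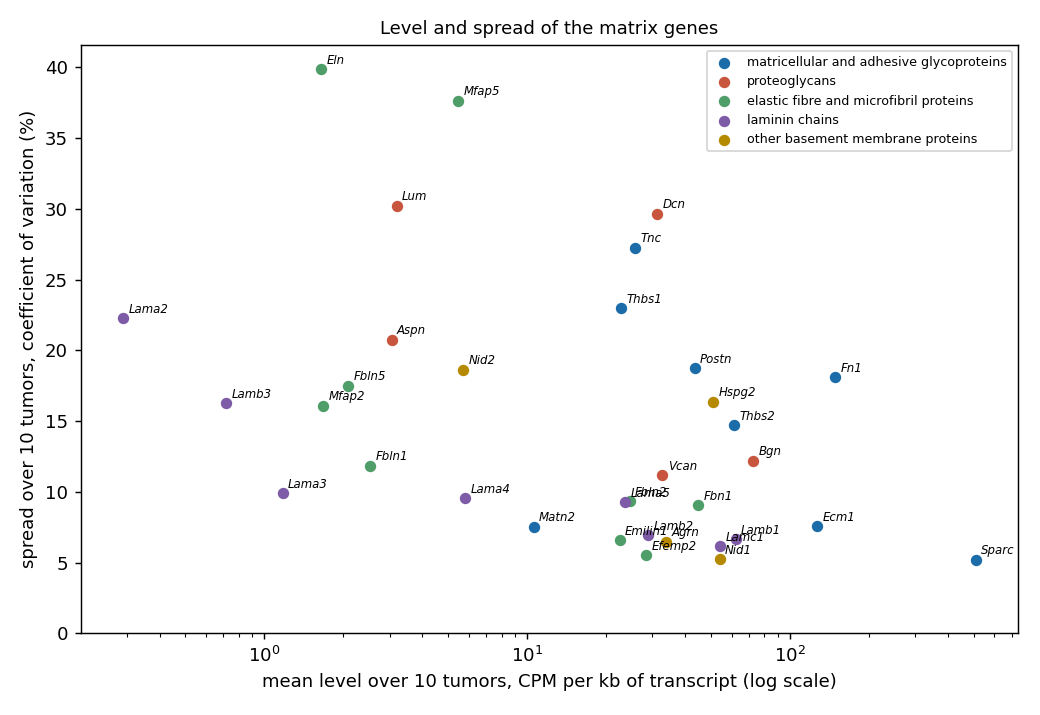
Mean level over the 10 tumors in CPM per kb of transcript (horizontal, log scale) against the coefficient of variation over the same tumors in percent (vertical) for the 34 genes that passed the filter, coloured by role. Sparc lies farthest right at 509 CPM per kb with the smallest spread (5.20%), and Eln lies at the top with 39.9%.

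Responders and non-responders were compared with edgeR's quasi-likelihood test over all 14944 genes, with Benjamini-Hochberg adjustment. None of the 34 matrix genes passed an adjusted p of 0.05, and neither did any of the 14944 genes (percent called 0%). Adjusted p-values of the 34 genes ranged from 0.555 to 0.991. Without adjustment, 5 of the 34 genes (14.7%) were lower in responders at p under 0.05, namely Postn, Thbs1, Emilin1, Nid2 and Hspg2, against 541 of all 14944 genes (3.62%). No matrix gene was higher in responders at that threshold, against 710 of all genes (4.75%). Because the matrix genes were chosen with earlier results of these data known, these shares describe the set and do not test it. In no matrix gene did the tumors of the 2 groups separate completely. Over all genes, every responder was below every non-responder in 71 (0.475%) and above in 61 (0.408%).

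Most of the matrix genes had a slightly lower mean in responders. The estimated log2 fold change (responders against non-responders) was below 0 in 25 of 34 genes (73.5%) and above 0 in 9, and 49.7% of all genes were below 0. The median over the 34 genes was -0.09 and that over all genes 0.00101. Single values ran from -0.35 (Thbs1) to 0.33 (Dcn). The genes with a higher mean in responders were Matn2, Ecm1, Dcn, Lum, Fbln1, Efemp2, Mfap2, Mfap5 and Lama3, 8 of them from the interstitial matrix. In the basement membrane, 11 of 12 tested genes had a lower mean in responders (median -0.10), and in the interstitial matrix 14 of 22 did (median -0.09). The difference between these compartments was not tested. In bulk tissue, fewer cells of a type and less RNA per cell cannot be told apart.

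**Figure D2:**
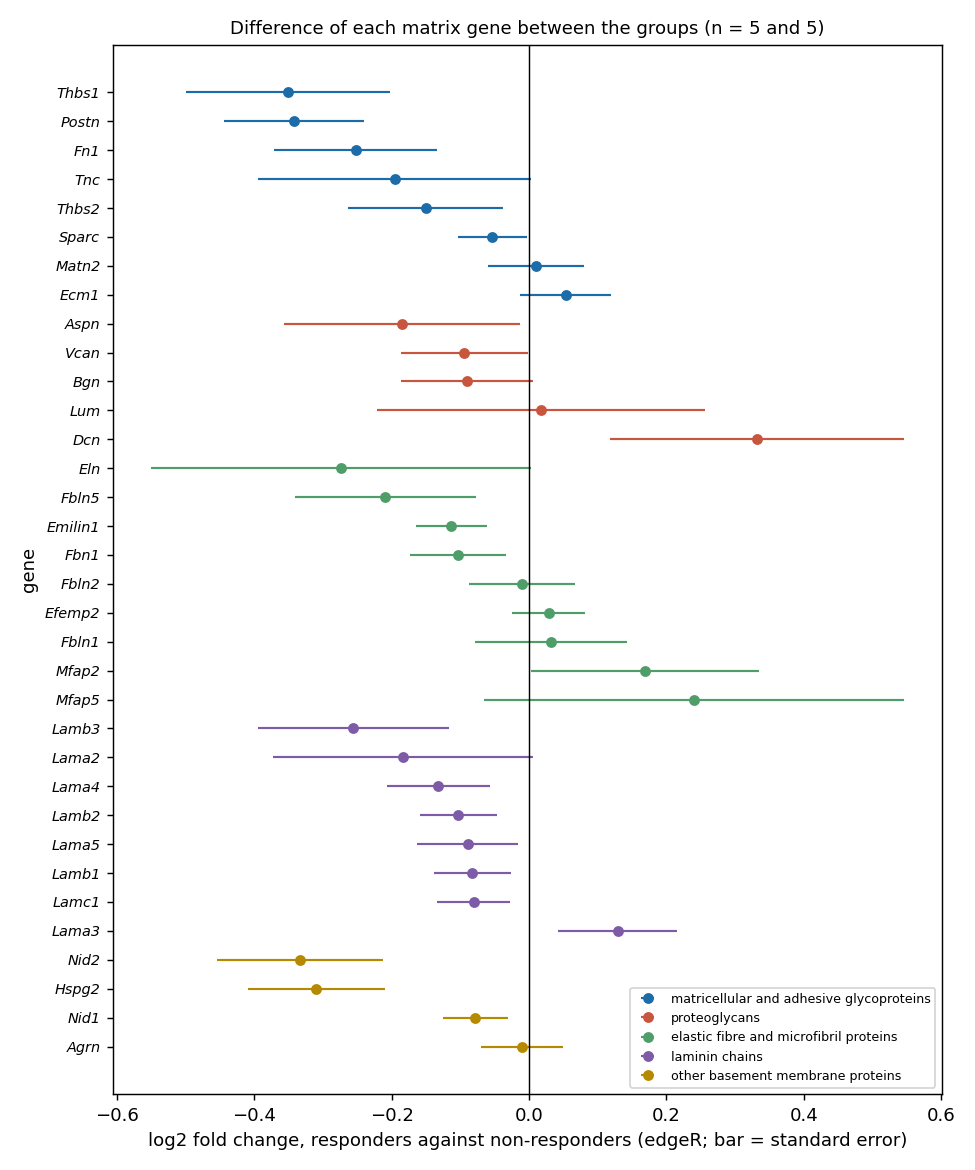
Log2 fold change of responders against non-responders (horizontal, edgeR) for each of the 34 genes tested, with its standard error as a bar, sorted and coloured by role. The points run from -0.35 to 0.33 and 25 of 34 lie left of 0, and no gene passed the adjusted threshold.

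The number of genes with a lower mean was 25 to 27 of 34 whichever tumor was left out, but the number past the unadjusted threshold moved with single tumors. Leaving out responder 5 raised the number of genes lower at unadjusted p under 0.05 from 5 to 13 and gave 1 higher gene (Lama3), with the smallest adjusted p at 0.0685 (Hspg2) and still 0 genes called. The share of all genes moved too in that repeat, to 6.76% lower and 7.31% higher. Leaving out responder 9, 10 or 11 or non-responder 2 gave 3 lower genes, which were Hspg2, Nid2 and Postn each time, against 2.35%, 3.23%, 2.75% and 3.79% of all genes. Leaving out non-responder 1 gave 5 lower genes and 1 higher gene (Dcn), against 4.08% and 6.04% of all genes. The median over the 34 genes ranged from -0.13 to -0.07 over the 10 repeats. For 23 of the 34 genes, leaving out 1 tumor moved the log2 fold change by over 1.5 times or changed its sign. Postn, Thbs1, Emilin1, Nid2 and Hspg2 were among the other 11.

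The tumors themselves differed in matrix gene levels across the group boundary. The summed CPM of the 36 genes was 7971, 6955, 7234, 6862 and 7212 in responders 5, 9, 10, 11 and 12, and 8117, 8581, 8089, 7631 and 7352 in non-responders 1, 2, 3, 6 and 7. Responder 5 lay above non-responders 6 and 7, and the other responders lay below every non-responder. These sums are not scaled by transcript length. Fn1, Sparc and Hspg2 weigh most in them, at means of 1240, 1171 and 725 CPM over the 10 tumors. Responder 11 was the lowest of the 10 tumors for 15 of the 34 genes and the highest for 4. Non-responder 2 was the highest for 13 and the lowest for 3. For the 4 other basement membrane proteins, the median deviation from the 10-tumor mean, on the log2(CPM + 1) scale, was 0.16 in responder 5, 0.23 in non-responder 2 and -0.28 in responder 11.

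**Figure D3:**
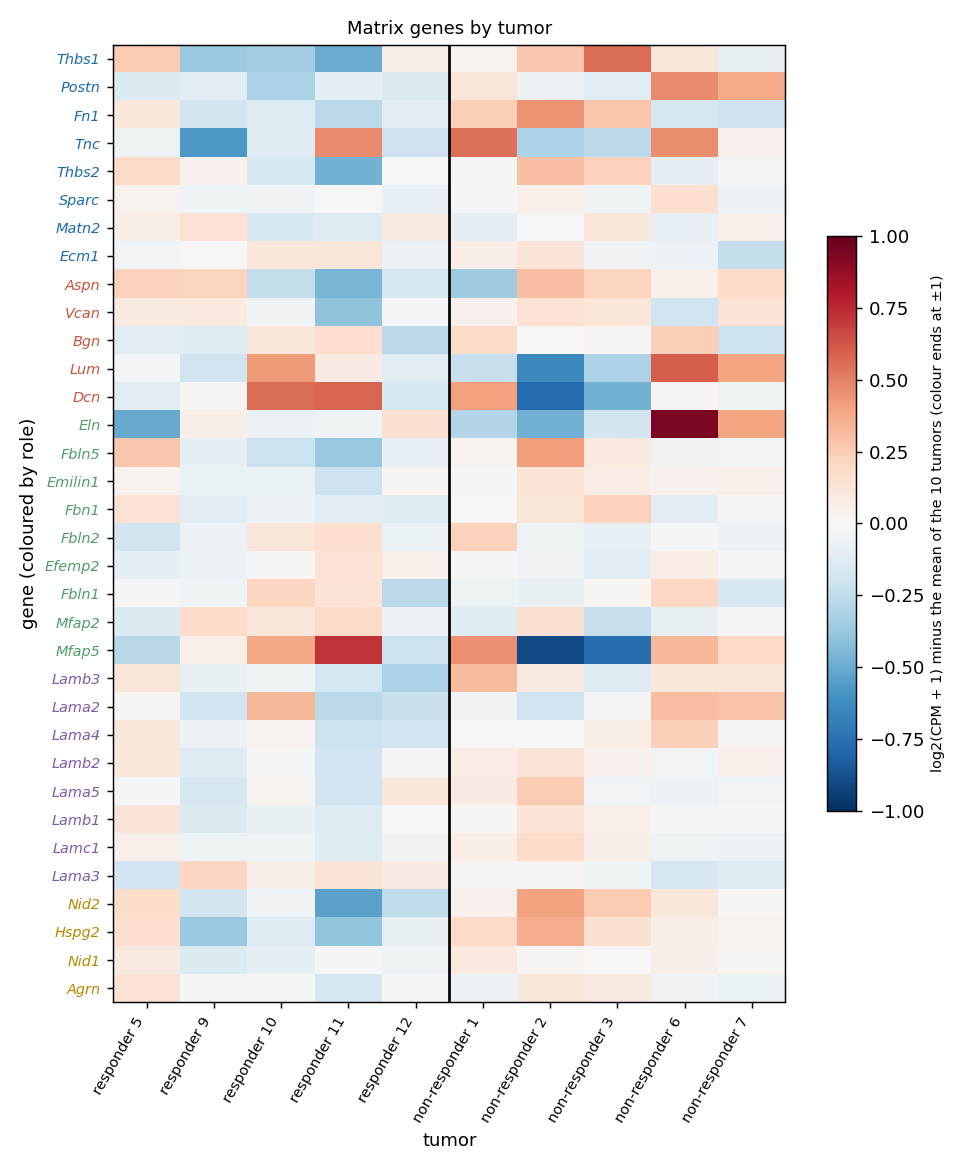
Deviation of log2(CPM + 1) from the 10-tumor mean for each of the 34 genes (vertical, gene names coloured by role) in each tumor (horizontal, responders left of the black line). Responder 11 and responder 9 are mostly blue in the laminins and basement membrane genes, responder 5 is mostly red there, and Dcn, Lum, Mfap5, Tnc and Eln are low in non-responders 2 and 3.

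As the start regions of the genes in which the groups differed most by the unadjusted test, promoters (250 bases before to 50 bases after the start) were taken from RefSeq on GRCm38.p6, where 24 of the 36 genes had an entry. Of the 5 genes with an unadjusted p under 0.05, Postn, Emilin1 and Hspg2 had one, and these are given 5′ to 3′, on chr3:54360857-54361156, chr5:30913536-30913835 and chr4:137468553-137468852, all on the plus strand. The capitals mark a TATA box (TATAAA) in Postn, the letters CCAAT on the opposite strand in Emilin1 and GC boxes (GGGCGG) in Hspg2. The match in Emilin1 lies after the start, near the end of the window.
Postn: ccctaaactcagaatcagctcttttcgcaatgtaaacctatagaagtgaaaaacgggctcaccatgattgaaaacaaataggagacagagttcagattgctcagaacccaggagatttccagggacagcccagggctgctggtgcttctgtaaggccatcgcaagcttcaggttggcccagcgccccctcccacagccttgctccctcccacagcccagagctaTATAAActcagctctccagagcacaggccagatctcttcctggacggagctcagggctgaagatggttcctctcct
Emilin1: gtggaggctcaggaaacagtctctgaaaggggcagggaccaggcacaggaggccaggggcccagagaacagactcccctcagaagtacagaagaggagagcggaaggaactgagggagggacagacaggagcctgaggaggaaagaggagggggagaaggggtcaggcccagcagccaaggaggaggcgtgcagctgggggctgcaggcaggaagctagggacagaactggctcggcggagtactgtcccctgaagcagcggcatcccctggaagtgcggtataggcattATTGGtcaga
Hspg2: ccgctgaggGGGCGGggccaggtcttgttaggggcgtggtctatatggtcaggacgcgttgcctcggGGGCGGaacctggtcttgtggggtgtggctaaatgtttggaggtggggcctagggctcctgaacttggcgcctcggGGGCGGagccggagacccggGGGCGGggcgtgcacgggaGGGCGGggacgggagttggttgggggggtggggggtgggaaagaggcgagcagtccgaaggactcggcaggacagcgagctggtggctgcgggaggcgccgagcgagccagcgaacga

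The RefSeq start of Emilin1 lies 384 bases after the start of the gene in GENCODE vM21, so its region is inside the GENCODE gene, while the RefSeq start of Hspg2 lies 34 bases after it. The 3 regions differ in base composition, with 53.0% G and C and 5 CpG dinucleotides in Postn, 61.7% and 6 in Emilin1, and 70.3% and 27 in Hspg2. Over the 24 genes, searched on both strands, TATAAA was found in 5 promoters (20.8%) against 13.6% of all 32851 promoters in the table. GGGCGG was found in 14 (58.3%) against 35.7%, and CCAAT in 9 (37.5%) against 37.4%. TGANTCA, the letters of an AP-1 site, occurred in 1 promoter (4.17%, Ecm1) against 7.81%. These matches describe letters in the window only.

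The matricellular and adhesive glycoproteins regulate how cells attach to the matrix. Of the 8 genes, 6 had a lower mean in responders (49.7% of all genes), 2 of them at unadjusted p under 0.05 (3.62% of all genes), and the median log2 fold change was -0.17. Postn (GRCm38, chr3:54361109-54391037, plus strand) encodes periostin, an integrin ligand secreted by fibroblasts and induced by TGF-beta. Its CPM was 125, 127, 110.2, 128 and 124 in responders 5, 9, 10, 11 and 12, and 149.7, 132, 127, 191 and 179 in non-responders 1, 2, 3, 6 and 7. The responders lay close together and overlapped the non-responders only through non-responder 3, and non-responders 6 and 7 were the highest. The means were 123 ± 7.32 and 156 ± 28.3 CPM (SD, here and below over 5 tumors per group). The log2 fold change was -0.34 with a standard error of 0.10, which gave an unadjusted p of 0.005 and an adjusted p of 0.555 (edgeR). It was the only matrix gene with an unadjusted p under 0.05 in all 22 alternative settings (other scalings, tests and filters, marker scores as covariates, and each tumor left out).

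Thbs1 (chr2:118111876-118127133, plus strand) encodes thrombospondin-1, an inhibitor of angiogenesis that binds CD47 and activates TGF-beta. Its CPM was 156, 101, 102, 92.2 and 136 in the responders and 134, 158, 192, 141 and 124 in the non-responders, in the same order. Responders 9, 10 and 11 were below every non-responder, while responder 5 was above all but non-responders 2 and 3. The means were 117 ± 27.2 and 149.8 ± 26.8 CPM, with a log2 fold change of -0.35 ± 0.15 (SE, edgeR unadjusted p = 0.035, adjusted p = 0.573). Thbs1 was past the unadjusted threshold in 14 of the 22 alternative settings and not with DESeq2. With an endothelial marker score as a covariate the log2 fold change was -0.14 (edgeR unadjusted p = 0.363). Exons of a predicted gene (Gm29233) overlap it on the opposite strand, and since no strand setting was stated for the counting, reads of such a pair cannot be told apart.

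Fn1 (chr1:71585520-71653200, minus strand) had the highest CPM of this group, while Sparc was higher per kb. It stood at 1319, 1076, 1120.4, 1014 and 1131 CPM in the responders and at 1447, 1667, 1486, 1082 and 1062 CPM in the non-responders. Non-responders 1, 2 and 3 were above every responder, but non-responders 6 and 7 fell within the responder range. The log2 fold change was -0.25 ± 0.12 (SE, edgeR unadjusted p = 0.054, adjusted p = 0.607), and Apol7d has exons on the opposite strand. Fn1 passed the unadjusted threshold in 8 of the 22 alternative settings, DESeq2 among them, and its log2 fold change was -0.09 with the endothelial score as a covariate (edgeR unadjusted p = 0.486). Tenascin-C (Tnc), a glycoprotein of wounds and tumor margins, ranged from 119 CPM in responder 9 to 262 CPM in non-responder 1 with no separation of the groups (log2 fold change -0.20, and -0.08 without non-responder 1 or -0.37 without responder 11). Thbs2, a relative of Thbs1, had a log2 fold change of -0.15 (-0.07 without responder 11 and -0.22 without responder 5), Sparc -0.05, the matrilin Matn2 0.01 and Ecm1 0.05.

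Most proteins of the proteoglycan group carry sulfated sugar chains, and most organise collagen fibrils. Of the 5 genes tested, 3 had a lower mean in responders (49.7% of all genes) and 2 a higher one. None had an unadjusted p under 0.05, where 3.62% of all genes were lower and 4.75% higher. Dcn (chr10:97479609-97518143, plus strand) encodes decorin, a small leucine-rich proteoglycan that binds collagen I and TGF-beta, and had the smallest p of the group. Its CPM was 48.9, 53.5, 78.3, 79.6 and 46.8 in the responders and 70.6, 30.5, 37.8, 53.9 and 51.4 in the non-responders. Responders 10 and 11 were highest and non-responders 2 and 3 lowest, and the other 6 tumors were intermixed. The log2 fold change was 0.33 ± 0.21 (SE, edgeR unadjusted p = 0.145, adjusted p = 0.705). With marker scores as covariates it was -0.04 (endothelial), 0.06 (macrophage) and 0.62 (skeletal muscle), the last past the unadjusted threshold. Without single tumors it ran from 0.20 (non-responder 2) to 0.50 (non-responder 1), the latter also past it.

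Vcan, which encodes the large hyaluronan-binding proteoglycan versican, had the highest CPM of these 6 genes, and per kb Bgn was higher. Its values were 432, 434, 396, 307 and 402 CPM in the responders and 417, 447, 439, 353 and 445 CPM in the non-responders. Responder 11 was the lowest tumor and the remaining values overlapped (log2 fold change -0.09, adjusted p = 0.813). Without responder 11 the log2 fold change was -0.02, and without non-responder 6 it was -0.15. Biglycan (Bgn), the closest relative of decorin, also had -0.09, and asporin (Aspn), a decorin relative of fibroblasts, -0.19. Lum, which encodes the fibril-regulating proteoglycan lumican and lies next to Dcn (chr10:97565128-97572703), had 0.02, with 11.97 CPM in non-responder 6 and 4.48 CPM in non-responder 2 as its extremes.

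Elastic fibres consist of an elastin core on a scaffold of fibrillin microfibrils, joined by fibulins and emilins. Of these 9 genes, 5 had a lower mean in responders and 4 a higher one, near the 49.7% of all genes with a lower mean, and 1 was lower at unadjusted p under 0.05 (3.62% of all genes), with a median log2 fold change of -0.01. Emilin1 (chr5:30913402-30921277, plus strand) encodes a glycoprotein at the elastin-microfibril interface that restrains TGF-beta processing. It stood at 88.8, 82.4, 82.7, 74.8 and 87.7 CPM in the responders and at 85.2, 95.3, 91.2, 89.0 and 89.5 CPM in the non-responders. Responders 5 and 12 overlapped non-responder 1 only, and the difference was small in size. The means were 83.3 ± 5.55 and 90.0 ± 3.67 CPM (log2 fold change -0.11 ± 0.05 SE, edgeR unadjusted p = 0.047, adjusted p = 0.593). With the endothelial score as a covariate it was -0.03 (unadjusted p = 0.624), and the gene was past the unadjusted threshold in 13 of the 22 alternative settings.

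Fbn1, the most abundant gene of the elastic fibre group, had 589.6, 491, 510.4, 495 and 489.9 CPM in the responders and 530.2, 579.6, 626, 494 and 539 CPM in the non-responders. Responder 5 exceeded every other responder and all but 1 non-responder (log2 fold change -0.10 ± 0.07 SE, adjusted p = 0.715). Of the fibulins, which bridge elastin and basement membranes, Fbln5 had a log2 fold change of -0.21, Fbln2 -0.01, Fbln1 0.03 and Efemp2 (fibulin-4) 0.03. Fbln5 had -0.33 without responder 5 (edgeR unadjusted p = 0.015) and -0.11 without non-responder 2. The microfibril-associated genes Mfap2 and Mfap5 had 0.17 and 0.24. Mfap5 ranged from 3.72 CPM in non-responder 2 to 13.4 CPM in responder 11, and non-responders 1 and 6 (11.04 and 10.01 CPM) lay above responders 5 and 12 (6.23 and 6.54 CPM). Its log2 fold change was 0.03 without responder 11, 0.06 without non-responder 2, 0.09 without non-responder 3 and 0.41 without non-responder 1. Eln had -0.27 ± 0.28 (SE), and its highest value was 12.6 CPM in non-responder 6. Without non-responder 6 its log2 fold change was 0.04, and without non-responder 2 it was -0.43.

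**Figure D4:**
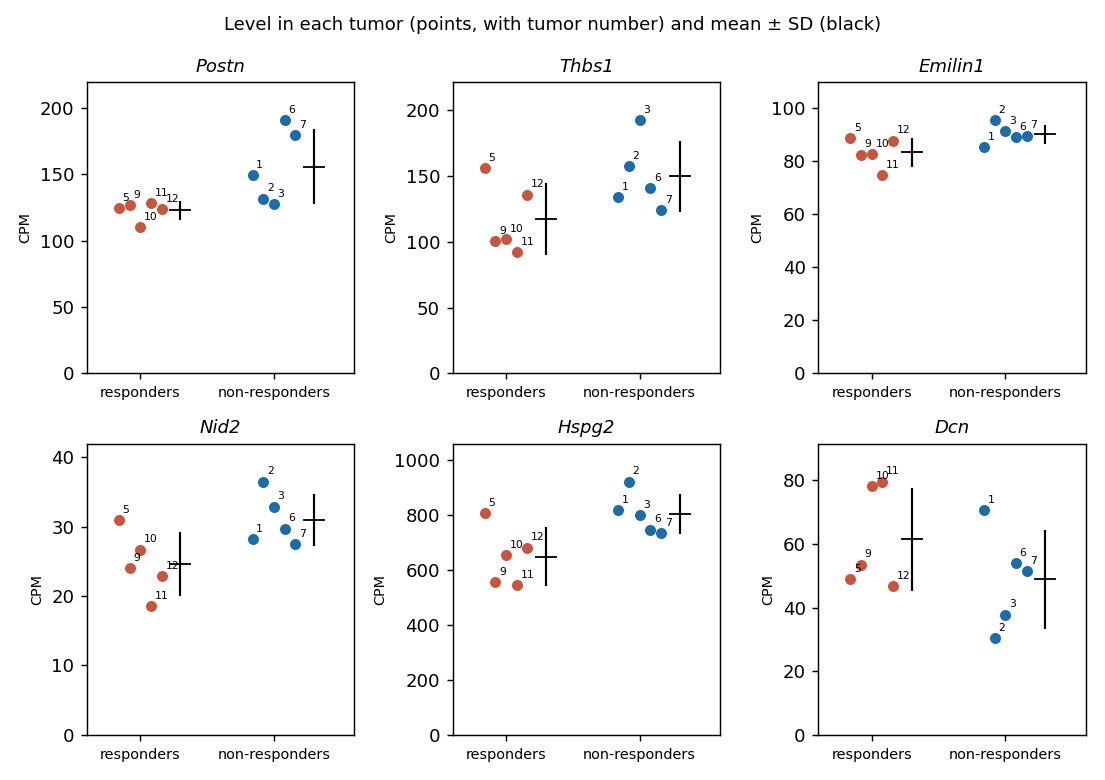
CPM in each tumor (points with tumor numbers) for 6 matrix genes in responders (red) and non-responders (blue), with the group mean and SD in black and every vertical axis starting at 0. Responder 5 lies among the non-responders for Thbs1, Emilin1, Nid2 and Hspg2, and Dcn shows the highest mean difference in the other direction with the groups intermixed.

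Laminin chains assemble into the trimers that start a basement membrane. Of the 8 chains tested, 7 had a lower mean in responders (49.7% of all genes) and 1 a higher one, none at unadjusted p under 0.05, and the median log2 fold change was -0.10. Lamb2, the beta chain of vascular, muscle and synaptic laminins, had the smallest p. Its values were 174, 148, 159.5, 141 and 159.5 CPM in the responders and 171, 177, 167, 159 and 168 CPM in the non-responders. Responder 5 was above all non-responders but number 2, responders 9 and 11 were below every non-responder, and responders 10 and 12 lay just above non-responder 6 (log2 fold change -0.10 ± 0.06 SE, edgeR unadjusted p = 0.088, adjusted p = 0.642). Lamc1, the gamma chain shared by most laminins, had the highest CPM of the chains (per kb Lamb1 was higher), with 429, 399, 402, 381 and 405 in the responders and 433, 469, 431, 400.3 and 398 in the non-responders. These values overlapped, with a log2 fold change of -0.08 ± 0.05 (SE, adjusted p = 0.705).

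None of the remaining chains passed the unadjusted threshold. Lama4 and Lama5, alpha chains found in the basement membranes of vessels, had log2 fold changes of -0.13 and -0.09, and Lamb1, the common beta chain, -0.08. Lama2, of muscle laminin, had -0.18 at 2.12 to 3.71 CPM (-0.105 without non-responder 6 and -0.334 without responder 10). Lama3 and Lamb3 belong to the laminin of epithelial anchoring and went in opposite directions, at 0.13 and -0.26, with levels of 10.7 to 14.5 CPM and 2.57 to 4.54 CPM. Their difference from each other was not tested.

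Nidogens bind laminin to collagen IV, while perlecan and agrin are heparan sulfate proteoglycans of the basement membrane. All 4 genes had a lower mean in responders (49.7% of all genes), 2 of them at unadjusted p under 0.05 (3.62% of all genes), and the median log2 fold change was -0.19. Hspg2 (chr4:137468769-137570630, plus strand) encodes perlecan, which stores growth factors in vessel walls and stroma. Its values were 804, 554, 654, 545 and 680.0 CPM in the responders and 816, 919, 798, 746 and 734 CPM in the non-responders. Responder 5 lay within the non-responder range, and the other 4 responders were below every non-responder. The means were 647 ± 106 and 803 ± 73.9 CPM, with a log2 fold change of -0.31 ± 0.10 (SE, edgeR unadjusted p = 0.009, adjusted p = 0.555). The log2 fold change was -0.40 without responder 5 and -0.14 with an endothelial marker score as a covariate, where the unadjusted p was 0.149 (edgeR).

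Nid2 (chr14:19751265-19811787, plus strand) encodes nidogen-2, a nidogen of vascular and other basement membranes. Its CPM was 30.98, 24.0, 26.7, 18.5 and 22.8 in the responders and 28.2, 36.5, 32.9, 29.7 and 27.5 in the non-responders. As for Hspg2, only responder 5 reached the non-responder range (log2 fold change -0.33 ± 0.12 SE, edgeR unadjusted p = 0.017, adjusted p = 0.567). With the endothelial score as a covariate its log2 fold change was -0.08 (unadjusted p = 0.355). Exons of Rtraf overlap Nid2 on the opposite strand. Nid1, the more abundant nidogen, had a log2 fold change of -0.08 and agrin (Agrn) of -0.01.

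From a list of 82 further matrix glycoproteins and proteoglycans, 63 genes passed the filter, and their median log2 fold change was -0.07. At unadjusted p under 0.05, 7 (11.1%) were lower in responders and 0 higher, against 3.62% and 4.75% of all genes. This list and the receptor list below were also chosen with earlier results known. The 5 with the smallest p were Spock2, a testican proteoglycan (-0.46), Fbln7, a fibulin (-0.96), Ccn4, a WNT-induced matricellular protein (-0.29), Vwa1, a perlecan-binding protein (-0.25) and Mfap4, a microfibril protein (-0.44). Of these only Ccn4 and Vwa1 were above 10 CPM, and Fbln7 had 3 to 28 counts per tumor. The smallest p-values in the other direction belonged to Ccn2, a TGF-beta target (0.34), Srgn, the proteoglycan of leukocyte granules (0.45), Matn4 (0.51), Tnxb (0.30) and Tinagl1 (0.08), none under 0.05. Spp1 (osteopontin), made by macrophages and tumor cells, was the most abundant gene of the list, at 1768 ± 173 and 1701 ± 193 CPM, and Epyc and Kera were at 0 in every tumor.

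All 29 listed receptors for matrix proteins were detected, with a median log2 fold change of -0.03. At unadjusted p under 0.05, 3 (10.3%) were lower and 2 (6.90%) higher in responders, against 3.62% and 4.75% of all genes. The lower ones were Itga7, the laminin-binding integrin alpha chain of muscle (-0.22), Sdc1, a cell surface heparan sulfate proteoglycan (-0.15), and Dag1, the laminin receptor dystroglycan (-0.13). The higher ones were Itga1, a collagen and laminin receptor chain (0.30), and Cd47, a thrombospondin receptor (0.15). For Sdc1, 1 of the 29 receptors, every responder was below every non-responder (0.475% of all genes), at means of 186 ± 8.94 and 207 ± 9.57 CPM. Lrp1 (-0.19) and Itgb5 (-0.15) came next among the lower receptors, and Itga6 (0.10), Itgb3 (0.17) and Sdc4 (0.15) among the higher ones. Lrp1, an endocytic receptor that clears thrombospondins, had the highest mean in CPM (920.0), and per kb Itgb1, the beta chain shared by most matrix-binding integrins, was highest (239 CPM per kb against 61.8 for Lrp1).

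Markers of the cells that could make these proteins were listed beside the result. These lists, too, were chosen with earlier results of these data known. The counts can be read against all 14944 genes, of which 3.62% were lower and 4.75% higher in responders at unadjusted p under 0.05 and 49.7% had a lower mean. The 12 mesenchymal genes listed for a fibrosarcoma all passed the filter, with Vim as the most abundant at 4934 ± 436 and 4716 ± 361 CPM. Krt1 was at 0 and Epcam under 1 CPM in every tumor, although the simple-epithelial keratin gene Krt8 had 160 to 225 CPM. The 12 mesenchymal genes had a median log2 fold change of -0.03, with 6 lower and 6 higher by mean in responders. At unadjusted p under 0.05, 2 of them, Col1a1 (-0.27) and Col3a1 (-0.20), were lower and 0 higher. Of the fibroblast markers, of which Dpt is also on the list of further matrix genes, 11 of 12 passed the filter, with a median of 0.08 and 2 higher (Ly6c1 and Pdpn). Their sum was 989, 1089, 1066, 1058 and 1030.3 CPM in the responders and 964.5, 967, 998, 990.5 and 955 CPM in the non-responders, and Cd34, which endothelial cells also express, was the most abundant gene, at a mean of 579 CPM. By gene, 7 of the 11 fibroblast markers had a higher and 4 a lower mean in responders.

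Most markers of endothelial cells had a lower mean in responders, like most of the basement membrane genes. The same held for most skeletal muscle and adipocyte markers, given below. Of 12 endothelial markers, 11 had a lower mean in responders and 5 (41.7%; Flt1, Esam, Cdh5, Tie1 and Kdr) had an unadjusted p under 0.05 (3.62% of all genes), with a median log2 fold change of -0.19. Their sum was 352, 319, 318, 298 and 321 CPM in the responders and 348, 377, 337, 378 and 321 CPM in the non-responders, and Eng was the most abundant. Here too responder 5 was the highest and responder 11 the lowest of the responders. With the endothelial marker score as a covariate, 2 genes (Postn and Tnc) were lower at unadjusted p under 0.05, against 1.55% of all genes in that fit, and the median over the 34 genes was -0.04. Of 12 pericyte and smooth muscle markers 11 passed the filter, with a median of -0.17. By mean, 6 were lower and 5 higher in responders. At unadjusted p under 0.05, 3 (Mcam, Notch3 and Abcc9) were lower and 0 higher. Their sums were 190.3 to 235 CPM in responders and 191 to 238 CPM in non-responders, with Des as the most abundant gene.

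Muscle and fat cells have basement membranes of their own, and their marker sums varied between pieces. The 12 skeletal muscle markers had a median log2 fold change of -0.33, 1 of them (Ckm) lower at unadjusted p under 0.05, and Acta1 was the most abundant. By mean, 11 of the 12 were lower in responders. Their sum was 156, 89.5, 139, 251 and 106 CPM in the responders and 226, 151, 122, 236 and 245 CPM in the non-responders. Responder 11, lowest for many matrix genes, had the highest muscle sum. With the muscle marker score as a covariate, 10 matrix genes were lower and 2 (Dcn and Mfap5) higher at unadjusted p under 0.05, against 4.15% and 5.57% of all genes in that fit, and 0 passed the adjusted threshold. Of 10 adipocyte markers 8 passed the filter, with a median of -0.42 and 2 lower at unadjusted p under 0.05 (Lep and Plin4). By mean, 7 of these 8 were lower in responders. Their sums ran from 27.3 to 63.9 CPM, and Fabp4, which endothelial cells and macrophages also express, was the most abundant.

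Most leukocyte markers had a higher mean in responders. The sum of the 10 macrophage markers was 1579, 1871, 1896, 2142 and 1677 CPM in the responders and 1963, 1466, 1709, 1596 and 1528 CPM in the non-responders, with a median log2 fold change of 0.14, none under an unadjusted p of 0.05, and C1qa as the most abundant gene. With the macrophage score as a covariate, 4 matrix genes (Bgn, Hspg2, Postn and Tnc) were lower at unadjusted p under 0.05, against 2.03% of all genes in that fit, and the median over the 34 genes was -0.06. Of 10 T and NK cell markers 9 were matched, all with a higher mean in responders and 4 (Prf1, Nkg7, Klrb1c and Ncr1) at unadjusted p under 0.05, and Prf1 was the most abundant. Their sum was 29.4, 89.9, 93.5, 130.1 and 83.4 CPM in the responders and 70.5, 29.5, 43.2, 50.7 and 32.8 CPM in the non-responders. Responder 5 and non-responder 2, both high in basement membrane genes, had the lowest of these sums. Non-responder 7 was close to them at 32.8 CPM, with a median deviation of 0.016 for the other basement membrane proteins. Non-responder 1 had 70.5 CPM with a deviation of 0.072. A relation between these sums and the matrix genes was not tested. Of the keratinocyte and epithelial markers 6 of 14 passed, 3 with a lower and 3 with a higher mean in responders. Only Trp63 was past the unadjusted threshold, and it was higher. Of the Schwann cell markers 5 of 8 passed, 3 with a lower and 2 with a higher mean. Only Ngfr was past that threshold, and it was lower, with Mbp as the most abundant gene in CPM. What part any of these cells have in the matrix gene values was not tested beyond the 3 covariates.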

How the data were processed

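RNA sequencing data of 10 tumor pieces were used. The authors deposited estimated counts per gene, made with kallisto 0.43.0 and tximport on GRCm38; the strand setting and annotation release are not given in the sources used here. The table held 36009 rows. The 9580 rows without a gene name (1.2% to 1.49% of counts per tumor) were left out, rows of a shared name (44 names) were summed, and counts were rounded to whole numbers. Genes with CPM above 0.366 in at least 3 tumors were tested with edgeR 4.0.16 (trimmed mean of M-values, quasi-likelihood F test, responders against non-responders, no covariate) in R 4.3.3, and p-values were adjusted by the Benjamini-Hochberg method over all 14944 genes. Standard errors were obtained from the fold change and the F statistic. CPM were scaled by the same factors. The fit was tested on simulated data. The common biological coefficient of variation was 10.1%. Depth limits the precision of genes with few counts.

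Gene positions and transcript lengths came from GENCODE vM21, promoters from RefSeq. Besides Thbs1, Fn1 and Nid2, exons on the opposite strand overlap Fbn1, Tnc, Eln, Efemp2, Aspn, Nid1, Matn2, Lama2 and Lama3. Exons of Mir7014 overlap Ecm1 on the same strand. Alternatives were other normalizations, DESeq2 1.42.0, limma-voom (limma 3.58.1), other filters, marker scores as covariates and leaving out each tumor. Every member was accounted for. Values per tumor are given for genes with an unadjusted p under 0.05 and, in each role group, for the smallest p and the highest CPM; of the further matrix and receptor lists the 5 smallest p in each direction are named, and of each marker list the most abundant gene and those at 0; other members, and marker genes past the unadjusted threshold, were named after their values were seen. The members and lists were chosen with earlier results of these data known. P-values set the group difference against the spread between single pieces of different mice. The spread between pieces of the same tumor was not sampled.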

Additional observations from a re-analysis of the deposited data

Results flagged for a closer look

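In 5 of the 68 sets of values (34 genes in each group of 5 tumors), the tumor at the end of the range was far from the others by Dixon's ratio; chance gives about 1 in 20 sets, here 3.4. All values are log2(CPM + 1). Postn was 6.80 in responder 10 and 6.97 to 7.02 in the other responders. Vcan was 8.26 in responder 11 against 8.63 to 8.76. Fbn1 was 9.21 in responder 5 against 8.94 to 9.0. Fbln2 was 7.12 in non-responder 1 against 6.80 to 6.88 in the other non-responders. Fbln5 was 4.12 in non-responder 2 against 3.67 to 3.80.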

How the results depend on the processing

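No matrix gene passed the adjusted threshold under any of the 22 other settings, of which keeping the counts without a gene name was added after seeing the data; the smallest adjusted p was 0.0685. No paired analysis was possible because the tumor numbers differ between the groups. The number of genes lower in responders at unadjusted p under 0.05, 5 as reported, was 10 with the muscle score and 2 with the endothelial score as a covariate, and 3 to 13 when single tumors were left out; the number higher, 0 as reported, was 2 with the muscle score and 0 to 1 without single tumors. The median log2 fold change was -0.0366 with the endothelial score, -0.0574 with the macrophage score and -0.129 to -0.0689 without single tumors. Signs were the same in every alternative for 18 genes; the other 16 changed sign in 41 cases, and the cause was not tested. With the endothelial score the log2 fold changes of opposite sign were 0.096 for Agrn, 0.077 for Aspn, -0.041 for Dcn, -0.032 for Efemp2, 0.050 for Fbln5, 0.010 for Lama5, 0.0025 for Lamb1, -0.125 for Lum, -0.306 for Mfap5, 0.064 for Thbs2 and 0.015 for Vcan. With the macrophage score they were 0.043 for Agrn, 0.033 for Aspn, -0.0082 for Efemp2, -0.041 for Fbln1, -0.0069 for Lum and -0.124 for Mfap5, and with the muscle score 0.055 for Fbln2, -0.061 for Matn2 and 0.102 for Tnc. Without single tumors, values ran from -0.050 to 0.025 for Agrn, -0.011 to 0.055 for Efemp2, -0.428 to 0.041 for Eln, -0.024 to 0.100 for Fbln1, -0.060 to 0.047 for Fbln2, -0.138 to 0.220 for Lum and -0.026 to 0.048 for Matn2. Without a sign change, values without single tumors ran from -0.151 to -0.041 for Bgn and -0.295 to -0.087 for Aspn. They ran from 0.104 to 0.260 for Mfap2, 0.0031 to 0.089 for Ecm1 and -0.157 to -0.056 for Fbn1. They ran from -0.074 to -0.020 for Sparc, -0.135 to -0.037 for Lama5 and -0.129 to -0.058 for Lamb1. For Lamc1 they ran from -0.107 to -0.048. Scaling moved the median of all genes by less than 0.1 on the log2 scale. Over all genes, DESeq2 called 1 gene and leaving out responder 5 gave 10, none of them among the 34. Genes with few counts (Fbln7, Lama2, Mfap2) are limited by depth.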
